A study of Mus musculus with 42 samples.

Results

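The autosomal transcripts that differed between male and female livers were examined in old C57BL6/N mice fed the control diet. The comparison set 10 control males against 9 control females, all killed at 25 months of age, with 1 array per mouse. Control chow carried the empty Eudragit capsule material from 19 months of age for 6 months. The other mice of the series, 12 Rapa males and 11 Rapa females of the same strain and age, ate chow with 14 ppm of encapsulated rapamycin, an inhibitor of the mTOR kinase, over the same 6 months, and served here as mice outside the control contrast, although their arrays shared its normalization, detection filter and estimate of the spread. Liver RNA was hybridized to Illumina Mouse Ref8 v2 arrays, which read a gene by the brightness of beads that carry a short probe of its transcript. Of 25697 probes, 12719 were detected on at least 9 of the 42 arrays and were tested. Of these, 11621 lay in 8634 genes of chromosomes 1 to 19 and are the transcripts described. Another 354 probes for genes of the X and Y chromosomes and 744 without a chromosome were left out. All mice were old, so the values give the sex difference at 1 age, and in whole liver fewer cells of a type and less RNA per cell cannot be told apart.

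In rodents the liver is one of the organs in which the sexes differ most in gene expression. The pituitary of males releases growth hormone in spaced pulses and that of females releases it more evenly. Each pulse activates the transcription factor STAT5 in hepatocytes, and further factors are known to follow the pattern in mice, the repressor BCL6 in males and CUX2 in females. The genes downstream include cytochromes P450, steroid-metabolizing enzymes, sulfotransferases and the major urinary proteins, which male mice excrete as scent carriers.

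Ratios are on the log2 scale and run males minus females, so that a positive ratio means higher in males. The 2-fold rule asked for a ratio over 1 in size with an adjusted p under 0.01. By this rule 86 of the 11621 autosomal transcripts (0.74%) were higher in control males, in 76 genes, and 51 (0.439%) were higher in control females, in 43 genes. The median ratio was 1.34 for the male-higher and -1.24 for the female-higher transcripts, against 0.02 over all autosomal transcripts. The ratio exceeded 2 in size for 18 male-higher and 8 female-higher transcripts. At the lower threshold, a ratio over 0.15 in size (1.11-fold) with an adjusted p under 0.05, 2627 transcripts (22.6%) were higher in males and 2054 (17.7%) higher in females. Just inside the 2-fold threshold stood Slc25a33 (1.001) and Ugt1a2 (-1.039), and just outside it Golga2 (0.996) and Ntrk2 (-0.997). These counts depended on the scaling: the male-higher share of the 2-fold calls was 62.8%, but 85.2% with arrays centred on their median and 50.3% after background correction. At the lower threshold the male-higher share was 56.1%, and 76.7% with centring.

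Some arrays stood apart, and array quality moved with sex. The 5th percentile of the signal, a measure of background, was 107.7 to 128.9 in control males and 76.5 to 89.7 in control females, with no overlap, and 115.8 to 141 in Rapa males and 78.4 to 107.7 in Rapa females, so background and sex cannot be told apart. Between 11524 and 12585 probes were detected per control male and 9519 to 11043 per control female. Among 9720 probes that no array detected, 131 passed the lower threshold as higher in males and 314 as higher in females (4.58% together), none passed the 2-fold rule, and the largest absolute log2 ratio was 0.46. Control females 6 to 9 resembled each other on these undetected probes (r of 0.373 or more between any pair, and at most 0.294 with any other array). Without them 12 of the 54 named probes past the 2-fold rule no longer passed it, 2 of these missed the lower threshold too, and 8 of the 13 named probes past the lower threshold only no longer passed. Control male 3 stood apart on detected transcripts, as the values by mouse show.

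The letters just upstream are shown for the 3 called genes with the highest and the 3 with the lowest ratio among those with an entry in the RefSeq table of starts, which holds none for Cyp4a12a, Cyp4a12b and Cyp17a1. A STAT5 dimer binds the palindrome TTCNNNGAA, and CUX2 and HNF6 are known to bind motifs around ATTGAT, read as ATCAAT on the other strand. The 250 bases before each start in GRCm38.p6 are printed 5′ to 3′ on the strand of the gene, with matches to either motif in capitals. Cyp2d9 encodes a steroid-hydroxylating P450, Mup21 a urinary protein, Nat8 an acetyltransferase with 2 starts in the table, A1bg a plasma glycoprotein, Hamp2 a hepcidin peptide and Slc22a26 an organic anion transporter.
Cyp2d9, chr15:82452127-82452376, plus strand
Cyp2d9: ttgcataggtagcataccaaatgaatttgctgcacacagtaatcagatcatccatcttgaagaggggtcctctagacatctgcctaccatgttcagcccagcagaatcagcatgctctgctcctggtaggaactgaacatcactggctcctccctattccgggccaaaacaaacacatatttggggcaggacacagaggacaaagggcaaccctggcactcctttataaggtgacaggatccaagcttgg
Mup21, chr4:62150842-62151091, minus strand
Mup21: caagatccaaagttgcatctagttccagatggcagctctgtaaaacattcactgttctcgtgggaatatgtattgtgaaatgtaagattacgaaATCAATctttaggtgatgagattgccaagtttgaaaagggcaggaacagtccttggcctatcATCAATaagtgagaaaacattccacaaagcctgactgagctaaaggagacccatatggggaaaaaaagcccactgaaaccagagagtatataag
Nat8, chr6:85836858-85837107, minus strand
Nat8: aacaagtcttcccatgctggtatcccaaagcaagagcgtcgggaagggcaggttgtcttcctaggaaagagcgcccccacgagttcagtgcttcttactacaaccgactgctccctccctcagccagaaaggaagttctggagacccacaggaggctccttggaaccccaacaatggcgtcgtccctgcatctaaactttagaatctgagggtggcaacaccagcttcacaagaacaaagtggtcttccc
Nat8, chr6:85832280-85832529, minus strand
Nat8: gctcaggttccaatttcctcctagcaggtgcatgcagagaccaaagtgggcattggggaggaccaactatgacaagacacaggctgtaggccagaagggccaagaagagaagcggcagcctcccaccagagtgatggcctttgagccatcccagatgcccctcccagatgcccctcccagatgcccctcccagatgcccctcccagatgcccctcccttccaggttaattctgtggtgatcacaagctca
A1bg, chr15:60921271-60921520, minus strand
A1bg: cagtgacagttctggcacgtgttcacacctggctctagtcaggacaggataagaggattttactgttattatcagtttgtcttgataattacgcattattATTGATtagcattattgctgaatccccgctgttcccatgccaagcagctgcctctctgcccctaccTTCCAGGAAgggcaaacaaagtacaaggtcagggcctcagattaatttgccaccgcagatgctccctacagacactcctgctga
Hamp2, chr7:30924182-30924431, minus strand
Hamp2: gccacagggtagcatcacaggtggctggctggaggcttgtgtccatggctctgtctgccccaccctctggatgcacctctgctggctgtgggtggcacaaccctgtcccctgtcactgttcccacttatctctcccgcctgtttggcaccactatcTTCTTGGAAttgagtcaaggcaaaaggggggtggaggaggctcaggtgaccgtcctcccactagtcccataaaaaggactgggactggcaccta
Slc22a26, chr19:7802668-7802917, minus strand
Slc22a26: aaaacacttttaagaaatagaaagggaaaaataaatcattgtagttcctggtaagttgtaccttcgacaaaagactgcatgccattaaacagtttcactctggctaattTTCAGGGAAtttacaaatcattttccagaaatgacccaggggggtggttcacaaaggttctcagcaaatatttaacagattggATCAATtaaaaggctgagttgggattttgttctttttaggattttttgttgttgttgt
The TTCNNNGAA match began 84 bases before the start of A1bg, 94 before Hamp2 and 141 before Slc22a26, and the bases of Cyp2d9, Mup21 and Nat8 held none. ATTGAT or its reverse began 156 and 94 bases before Mup21, 150 before A1bg and 58 before Slc22a26. With 3 genes of each sign nothing is read from this, and the shares over all called genes follow.

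Over windows from 250 bases before to 50 after each start, TTCNNNGAA stood in 8 of 81 windows of male-higher genes (9.88%) and 4 of 44 of female-higher genes (9.09%), against 7.01% of the 9078 windows of all autosomal genes tested and 8.3% of 32851 windows in the table. ATTGAT or its reverse stood in 9 of 81 (11.1%) and 7 of 44 (15.9%), against 4.48% of autosomal tested windows and 7.54% of all. A gene can have several windows, and 60 of the 76 male-higher and 35 of the 43 female-higher genes had one. These are descriptions of short windows near the start, and sites farther away were not searched.

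The largest male-higher ratios belonged to cytochromes P450 and a urinary protein. Cyp4a12a, a hydroxylase of fatty acids and arachidonic acid on chromosome 4, read 10.17, 12.67 and 13.30 in control males (lowest, median and highest normalized log2 signal) and 6.83, 7.09 and 7.24 in control females. It was detected in all 10 males and in none of the 9 females, so the ratio (5.44 ± 0.30 SE, adjusted p = 8.34e-18) is a bound, at least 34.2-fold higher in males. Its neighbour Cyp4a12b, at least 11-fold higher (adjusted p = 1.13e-13), read 8.71 to 11.96 in males and 6.98 to 7.24 in females, and the probes of such close copies may read each other's transcripts. Cyp2d9, a P450 that hydroxylates testosterone, read 13.38, 13.71 and 14.27 in males and 7.68, 8.08 and 10.51 in females, a ratio of 5.41 ± 0.26 or 42.4-fold (adjusted p = 1.1e-19). For these 3 genes every male lay above every female, with control male 3 the lowest male for both Cyp4a12 genes and control female 9 the highest female for Cyp2d9.

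Mup21, a major urinary protein, read 13.18, 13.59 and 14.26 in males and 8.91, 10.31 and 10.66 in females (ratio 3.80 ± 0.34, adjusted p = 1.31e-11). Nat8, an acetyltransferase of cysteine conjugates, read 10.67, 11.22 and 11.41 in males and 7.08, 7.44 and 7.91 in females (3.71 ± 0.14, adjusted p = 3.91e-24). Neither gene overlapped between the sexes, and of the transcripts named here Nat8 had the lowest adjusted p. Hsd3b5, a steroid reductase of the male mouse liver, spread more widely, with 7.49, 10.79 and 12.30 in males and 6.85, 7.04 and 7.10 in females. No female array detected it, and it was at least 6.1-fold higher in males (3.00 ± 0.69 as measured, adjusted p = 0.000547). Its lowest male still read above the highest female.

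Lipid genes followed. Cidea, which enlarges lipid droplets, was detected in 9 of 10 males and no female and was at least 5.33-fold higher in males (adjusted p = 9.03e-05), with 7.09, 10.22 and 11.48 in males and 6.84, 7.04 and 7.09 in females. Elovl3, an elongase of very long fatty acids, was detected in every male and no female, at 7.29, 9.46 and 10.15 in males and 6.82, 6.87 and 7.17 in females, at least 3.71-fold higher (adjusted p = 7.22e-09). The lowest male of both genes sat beside the female range, which is the level of an undetected probe. Scp2, a sterol carrier that is also a thiolase of peroxisomes, read 13.20, 13.49 and 13.70 in males and 10.82, 11.25 and 11.63 in females (2.23 ± 0.15, adjusted p = 3.79e-15). Its 3 probes agreed in sign, between 0.65 and 2.23.

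The other names among the 15 highest ratios have less familiar roles in liver. Gpc1, a cell-surface proteoglycan, had a ratio of 2.38 (SE 0.33), and its males (9.75 to 11.55) and females (7.62 to 10.14) overlapped. Olig1, a transcription factor best known from oligodendrocytes, had 2.29 (SE 0.29), with 8.79 to 11.14 in males and 7.41 to 8.83 in females. These sexes overlapped by a narrow margin. For Clstn3 (2.15), a calsyntenin of the cell membrane, Mcm10 (2.12), a replication factor, and Ociad2 (2.08), every male read above every female. Clstn3 had a second probe at 0.23, and the second probe of Mcm10 read 1.64. Mup5 (2.10, SE 0.39) had a second probe at -0.07, and since urinary protein genes are near-identical copies their probes may not separate single genes.

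**Figure D1:**
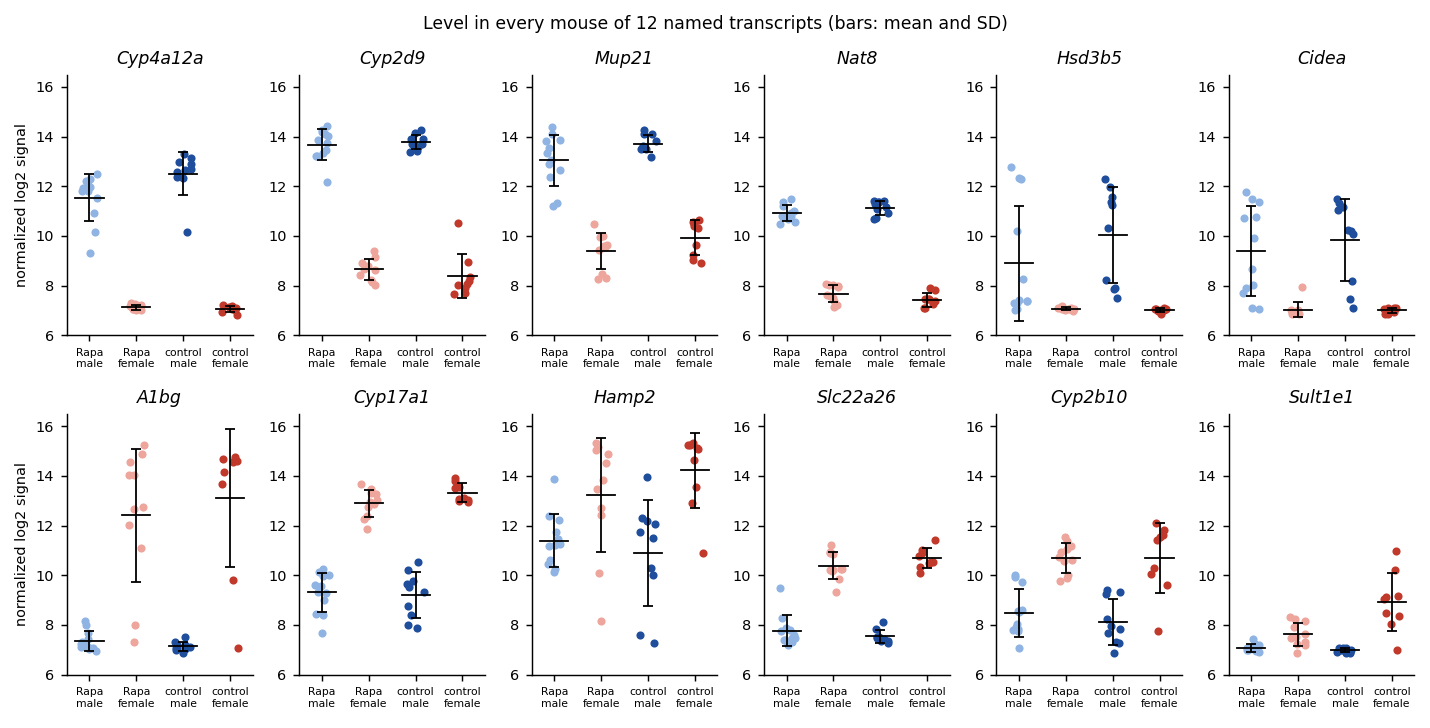
Normalized log2 signal (vertical axis) of 12 autosomal transcripts in each mouse, by group, with points for single mice and bars for the mean and SD. Cyp4a12a, Cyp2d9, Mup21, Nat8 and Hsd3b5 separate the control sexes completely with males above, Cyp17a1 and Slc22a26 with males below, while A1bg (6.86 to 7.52 in control males, 7.06 to 14.77 in control females) and Hamp2 each have mice of both sexes in a shared range.

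Among the female-higher transcripts A1bg, a plasma glycoprotein, read 6.86, 7.13 and 7.52 in control males and 7.06, 14.55 and 14.77 in control females, was detected in 2 of 10 males and 8 of 9 females, and had a measured ratio of -5.97 ± 0.83 (adjusted p = 3.31e-07), whose size is limited by male signals near background. The overlap came from control female 9, which read at the male level, while control female 5 read 9.79. Cyp17a1, the P450 that turns progestins into androgen precursors, read 7.88, 9.42 and 10.53 in males and 12.93, 13.10 and 13.91 in females (-4.11 ± 0.31, adjusted p = 1.62e-13). Slc22a26 read 7.27, 7.49 and 8.11 in males and 10.08, 10.52 and 11.43 in females (-3.14 ± 0.22, adjusted p = 1.95e-14). Every male lay below every female for these last genes.

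Hamp2 read 7.26, 11.61 and 13.95 in males and 10.89, 15.07 and 15.31 in females (-3.33 ± 0.80, adjusted p = 0.000835). Males therefore ran from near background up into the female range. Cyp2b10, a P450 induced through the receptor CAR, read 6.88, 7.90 and 9.41 in males and 7.77, 11.41 and 12.09 in females (-2.58 ± 0.44, adjusted p = 8.83e-06). Eci3, an isomerase of unsaturated fatty acids in peroxisomes, read 7.18, 7.27 and 7.50 in males, 5 of them detected, and 7.43, 10.04 and 10.36 in females (-2.24 ± 0.28, adjusted p = 5.64e-08). In both genes the lowest female lay within the male range.

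Sult1e1, the estrogen sulfotransferase, was detected in no control male and in 8 of 9 control females. It read 6.86, 6.99 and 7.06 in males and 6.98, 9.03 and 10.97 in females, at least 3.16-fold lower in males (-1.96 ± 0.26 as measured, adjusted p = 1.76e-07). Nt5e, the ecto-nucleotidase CD73, had a ratio of -2.05 (SE 0.21) with a second probe at -1.45, and St3gal6, a sialyltransferase, had -1.996 (SE 0.14). Both read lower in every male than in any female, and so did Sybu (-1.52), a linker of kinesin to vesicles. Mt1, the metal-binding and stress-induced metallothionein, read 10.91, 12.26 and 15.64 in males and 13.79, 14.25 and 15.68 in females (-2.19 ± 0.52, adjusted p = 0.000706), with control male 3 the highest male. Without control females 6 to 9 its adjusted p was 0.0137, short of the 2-fold rule.

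Dct, dopachrome tautomerase of the melanin pathway, had a ratio of -1.76 (SE 0.38), and Hao2, an oxidase of hydroxy acids, -1.71 (SE 0.48, adjusted p = 0.00419), with overlap in both. Hao2 was detected in 4 of 10 males and 6 of 9 females, and its adjusted p no longer passed 0.01 without control female 4 or control female 8. Cyp2a5, the coumarin hydroxylase, had 4 probes with ratios of -1.81 to -0.46, and 3 of them passed the lower threshold. Its probe with the largest ratio read 7.95, 11.91 and 12.28 in males and 10.53, 13.77 and 14.28 in females, and control male 3 and control female 9 were the lowest of their groups. Lyz2, lysozyme of macrophages and neutrophils, read 9.91, 10.49 and 11.55 in males and 11.20, 12.32 and 13.78 in females (-1.64 ± 0.29, adjusted p = 1.52e-05), and its second probe had -0.53.

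Counted over the 137 calls, the sexes did not overlap at all for 51 of the 86 male-higher and 18 of the 51 female-higher transcripts, beside 3.45% of all autosomal transcripts with every male above and 3.01% with every male below. The contrast that chose the calls favours such separation, so these counts are descriptions. The other sex had no detected array for 9 male-higher transcripts and 2 female-higher ones (Cux2 and Sult1e1). All 19 control arrays detected 56 of the 86 and 41 of the 51. More than 1 tested probe existed for 22 male-higher and 18 female-higher genes, and all of them were called for 6 and 5 genes. Within a sex the called transcripts varied more between mice than the rest did: the median SD was 0.43 in control males and 0.35 in control females for male-higher transcripts, 0.34 in males and 0.65 in females for female-higher ones, and 0.14 in males and 0.19 in females over all autosomal transcripts.

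Each mouse was then placed by the number of called transcripts that it read on the male or the female side of the midpoint between the control group means, which describes the mice and tests nothing. Control males read 48 to 86 of the 86 male-higher transcripts above the midpoint (median 83), and control females read 0 to 9 (median 5). Of the 51 female-higher transcripts, control males read 0 to 10 above the midpoint (median 2) and control females 34 to 51 (median 45). No control mouse fell in the range of the other sex. In the mice outside the control contrast, Rapa males read 30 to 82 of the male-higher transcripts above the midpoint and Rapa females 10 to 25, and for the female-higher transcripts the counts were 2 to 18 in Rapa males and 25 to 37 in Rapa females.

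**Figure D2:**
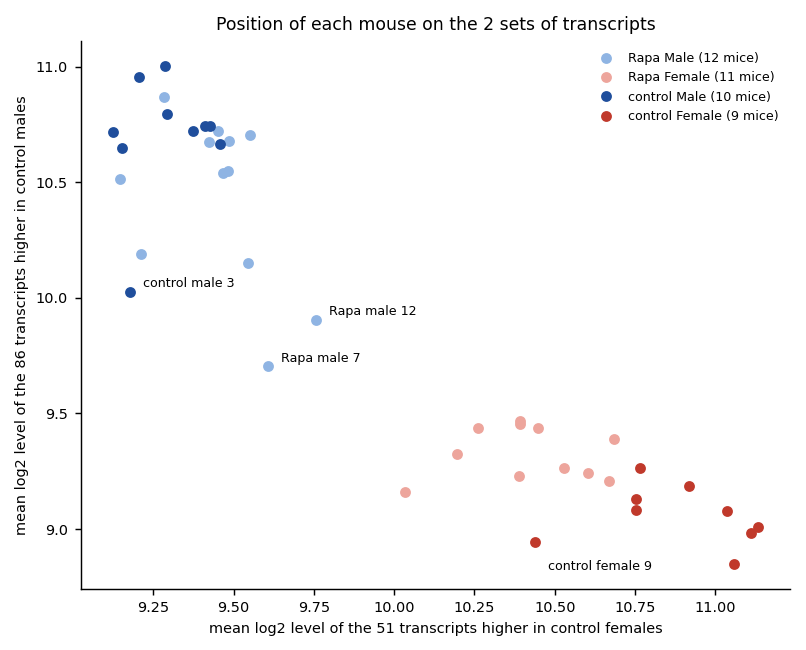
Mean normalized log2 signal of the 86 male-higher transcripts (vertical axis) against that of the 51 female-higher transcripts (horizontal axis), with 1 point for each of 42 mice. Control males (10.03 to 11.00 on the vertical axis) and control females (8.85 to 9.26) form separate groups. On this axis Rapa males read 9.70 to 10.87 and Rapa females 9.16 to 9.47. Rapa male 7 (9.70) and Rapa male 12 (9.91) lie between the ranges of the control sexes.

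Control male 3 was the mouse with 48, whereas the other 9 control males had 82 to 86. Its markers of another cell type and of inflammation were also high. The summed signal of 12 neutrophil markers was 51200 in this mouse and 2340 to 4340 in the other control males, the sum of 19 acute phase plasma proteins was 426000 against at most 330000, and the iron-binding acute phase protein Lcn2 read 15.45, the highest of the males. Rapa male 7 (30 of 86) and Rapa male 12 (42 of 86) had neutrophil sums of 24400 and 29900, with 3920 to 8700 in the other Rapa males. These 3 males thus held both the fewest male-higher transcripts above the midpoint and the highest neutrophil sums of 22 males. The acute phase sums did not follow the counts in the same way. They were 372000 in Rapa male 7 and 420000 in Rapa male 12, but 376000 in Rapa male 9, which read 82 of the 86 above the midpoint. Without control male 3 the 2-fold counts were 94 higher in males, 82 of them among the 86, and 63 higher in females, 48 of them among the 51. The part of neutrophils or inflammation in these levels was not tested.

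**Figure D3:**
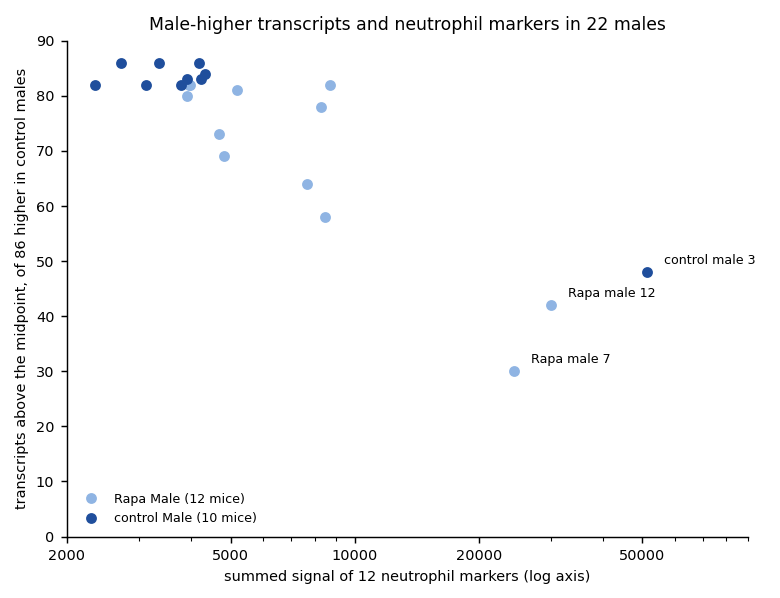
Summed signal of 12 neutrophil markers (horizontal log axis) against the number of the 86 male-higher transcripts above the midpoint of the control groups (vertical axis) in 22 males. Rapa males 7 and 12 and control male 3 stand apart at high neutrophil sums and low counts.

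Control females also differed in these markers. Neutrophil sums were 2340 to 51200 in control males (median 3860) and 3200 to 138000 in control females (median 14500), and control females 5, 6 and 9 held the highest of the females (120000, 78800 and 138000). Of the female-higher transcripts they read 45, 48 and 34 above the midpoint, beside a median of 45 in all control females, so only female 9 was low. Of the 12 neutrophil markers 8 were lower in males at the lower threshold, with S100a8, a calcium-binding protein of neutrophil granules, at 8.63, 9.43 and 11.66 in males and 9.49, 10.87 and 15.20 in females (-2.25 ± 0.79, adjusted p = 0.0195). The sexes overlapped broadly. Lcn2 (-2.32, adjusted p = 0.0206), Ltf (-2.11, adjusted p = 0.0228), an iron-binding granule protein detected in 1 male and 6 females, and the gelatinase Mmp9 (-0.80, adjusted p = 0.0157) overlapped too. No neutrophil marker passed without control females 6 to 9. In control males 5 of the 12 were detected in every mouse and 1 in none, and in control females 4 in every mouse and none in no mouse.

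Markers of other cells were examined alongside, with each gene taken by its brightest probe. Beside them, 20% of 8634 autosomal genes (1726) passed the lower threshold as higher in males and 18.9% (1634) as higher in females. Without control females 6 to 9 these counts over all autosomal genes fell to 1070 and 1102. Of 10 Kupffer cell and macrophage markers 5 were lower in males, with a summed signal of 5100 to 17100 in males and 8720 to 21700 in females. Among them was Ctss, a lysosomal protease (-1.05, adjusted p = 0.000266), and its ratio without control females 6 to 9 was -0.49 (adjusted p = 0.088). Without these females 1 marker passed. Of 7 B and plasma cell markers 3 were lower in males, led by Tnfrsf17, the plasma cell receptor BCMA, with 7.25, 7.41 and 7.58 in males and 8.01, 8.43 and 8.93 in females (-1.07 ± 0.10, adjusted p = 4.55e-11). No male reached the lowest female. Its ratio was -0.84 without control females 6 to 9, and then 1 marker of the list passed and the median ratio of the list was 0.28, against -0.36 with them. None of 9 T and NK cell markers passed. Hepatocyte marker sums were 207000 to 235000 in males and 197000 to 248000 in females, and 9 of the 10 hepatocyte markers were detected on every control array of each sex. Of 9 housekeeping genes only the lysosomal enzyme Gusb passed (-0.36, adjusted p = 0.047), and none without control females 6 to 9.

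The pathway lists were read in the same way, by brightest probe and lower threshold. Of 15 measured genes known as male-predominant in mouse liver, 11 were higher in control males and none lower (median ratio 1.93), and 9 passed the 2-fold rule. Of 8 known as female-predominant, 6 were lower in males and none higher (median -1.83), all 6 past the 2-fold rule. These lists were drawn from textbook sex differences with earlier results of these data known. Mup20, the urinary pheromone darcin, was a male-predominant gene that did not pass, with 11.64, 12.77 and 13.51 in males and 10.31, 12.47 and 13.12 in females (0.76 ± 0.44, adjusted p = 0.158). Cyp2b9 (-1.44, adjusted p = 0.0868) and Cyp2b13 (-1.30, adjusted p = 0.0614), female-predominant P450s, did not pass either. All 3 ratios pointed the way their lists name. Over the whole urinary and odorant-binding list, 2 of 7 genes were higher and 1 lower in males. The lower one was Lcn2 (-2.32), also counted among the neutrophil markers, and it did not pass without control females 6 to 9.

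Among 19 steroid-metabolizing enzymes, 7 were higher and 4 lower in males (median 0.17). Beside Hsd3b5 and Cyp17a1, Cyp7b1, the oxysterol hydroxylase, read 12.18, 12.81 and 13.27 in males and 9.89, 11.06 and 11.69 in females (1.83 ± 0.27, adjusted p = 1.05e-06). Every male was above every female. Hsd17b6, a dehydrogenase of retinol and androgen metabolites, read 8.98, 9.52 and 10.37 in males and 10.06, 10.65 and 12.15 in females (-1.18 ± 0.30, adjusted p = 0.00167), with a narrow overlap and control female 7 well above the other females. Its ratio was -1.01 (adjusted p = 0.0321) when control females 6 to 9 were left out. Of 22 genes of bile acid synthesis and transport, 8 were higher and 3 lower, or 6 and 2 without control females 6 to 9. The exporters of conjugates Abcc2 (1.06, adjusted p = 1.08e-08), at the canalicular membrane, and Abcc3 (1.14, adjusted p = 4.82e-05), at the basolateral membrane, were 2-fold higher. Without control females 6 to 9 Abcc2 had a ratio of 0.79, and a second Abcc2 probe had 0.74 over all control mice.

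Of 8 sulfotransferases and sulfate donor enzymes, 5 were lower and 2 higher in males (median -0.63), and without control females 6 to 9 the counts were 6 and 0. Against Sult1e1 stood Sult2a8, a bile acid sulfotransferase, with 9.77, 12.29 and 12.54 in males and 7.09, 10.56 and 11.26 in females (2.06 ± 0.57, adjusted p = 0.0034). Control male 3 was far below the other males here, and without control females 6 to 9 the ratio was 1.52 with an adjusted p of 0.0806. Of 20 glutathione S-transferases 3 were higher and 2 lower, but 6 and 1 without control male 3. Gstp2, which couples glutathione to electrophiles, read 8.33 to 10.46 in males and 7.50 to 8.28 in females (1.29 ± 0.31, adjusted p = 0.000709, and 0.0189 without control females 6 to 9).

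Of 11 Cyp4 fatty acid hydroxylases 4 were higher in males and none lower, 6 and 1 without control male 3, and 2 and 0 without control females 6 to 9. Of 8 Cyp2c enzymes, which oxidize drugs, steroids and fatty acids, 5 were lower in males and 1 higher (median -0.37), or 3 and 0 without control females 6 to 9. Cyp2c39 had a ratio of -0.82 (adjusted p = 0.000175), and Cyp2c70, which makes muricholic acids in mice, -0.70 (adjusted p = 0.000792). Cyp2c29 (-0.83, adjusted p = 0.0116) and Cyp2c67 (-0.43, adjusted p = 0.0182) each had control male 3 as the lowest male. A second Cyp2c67 probe had a ratio of 1.45 (adjusted p = 8.85e-06), of the opposite sign, and was itself a male-higher 2-fold call. Cyp2c67 is therefore counted as lower in this list and among the male-higher 2-fold genes. These genes are close copies whose probes may not separate them. Of 17 other enzymes of the Cyp1 and Cyp2 families 5 were higher and 2 lower, and without control females 6 to 9 the counts were 4 and 5. Of 5 genes of the Cyp2b family and CAR 2 were lower and none higher.

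**Figure D4:**
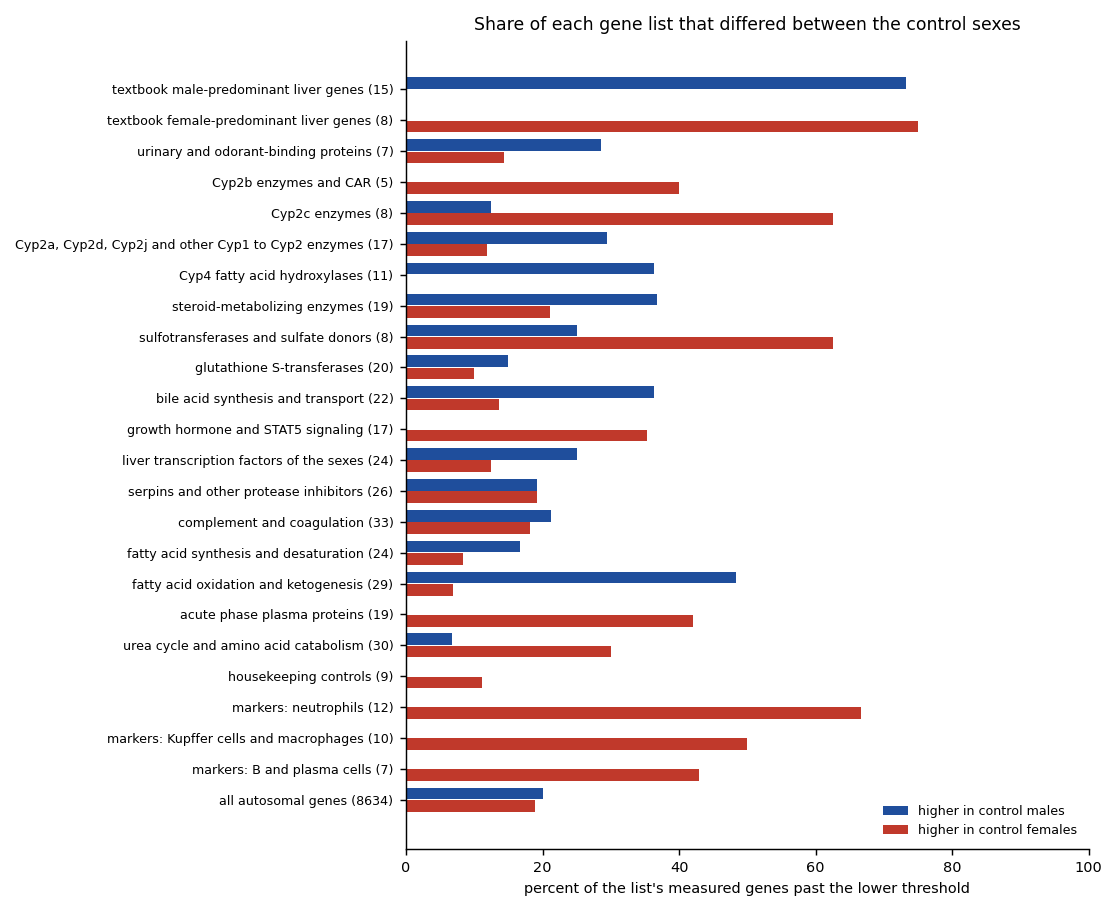
Percent of the measured genes of each list that passed the lower threshold (horizontal axis), with the bar for higher in control males above the bar for higher in control females. Textbook male-predominant genes (73.3% higher in males, 0 higher in females), neutrophil markers (0 and 66.7%) and fatty acid oxidation (48.3% and 6.9%) stand beside 20% and 18.9% of all autosomal genes.

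Of 17 genes of growth hormone and STAT5 signaling, none passed the 2-fold rule, none was higher and 6 were lower in males at the lower threshold. Over all 8634 autosomal genes the count lower in males fell from 1634 to 1102 without control females 6 to 9. Of the list's genes 2 were then lower. Those named by the rule were Igfbp7 (-0.72, adjusted p = 9.93e-05) and Igfbp1 (-0.93, adjusted p = 0.0131), binding proteins of insulin-like growth factors, Igfals (-0.55, adjusted p = 0.00381), the subunit that stabilizes their complex in blood, and Ptpn1 (-0.76, adjusted p = 0.00547), a phosphatase of the insulin receptor and JAK2. Igfbp1 and Ptpn1 did not pass without control females 6 to 9 (adjusted p = 0.273 and 0.224). The receptor Ghr (0.12, adjusted p = 0.617, and a second probe at -0.51, adjusted p = 0.106), Igf1 (-0.05, adjusted p = 0.734) and the feedback inhibitors Socs2 (0.16, adjusted p = 0.749) and Cish (0.62, adjusted p = 0.0799) did not pass. Of 24 liver transcription factors linked to sex, 6 were higher and 3 lower, and 1 in each direction passed the 2-fold rule. Cux2 was detected in no control male and in 8 of 9 control females. It read 6.81, 6.94 and 7.12 in males and 7.12, 8.63 and 9.40 in females, at least 2.23-fold lower in males (adjusted p = 2.48e-07). A second Cux2 probe had -0.27, past the lower threshold. Ppara, the fatty acid receptor, had 1.04 (adjusted p = 2.45e-07) with no overlap, and 0.82 without control females 6 to 9. Bcl6 had 0.51 (adjusted p = 0.161), with 8.87, 9.65 and 11.28 in males and 8.79, 9.22 and 10.15 in females.

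Of 29 genes of fatty acid oxidation and ketogenesis, 14 were higher in males and 2 lower (median 0.48), with 8 and 2 without control females 6 to 9. Fgf21, a fasting hormone of liver (1.21, adjusted p = 0.000172), was the only gene of this list past the 2-fold rule by its brightest probe. Among all probes, 1 of the 2 tested for Acadm was also a male-higher 2-fold call (1.04, adjusted p = 7.23e-06). Lpin2, a phosphatase on the way to triglycerides (1.02, adjusted p = 2.53e-05), was also 2-fold higher in males. Like Elovl3, it belonged to the synthesis list that follows. The sexes overlapped for Fgf21 and Lpin2. Lpin2 had 0.86 without control females 6 to 9. Of 24 genes of fatty acid synthesis and desaturation 4 were higher and 2 lower (median 0.00), 2 and 1 without control females 6 to 9, and 5 and 1 without control male 3. Of 30 genes of the urea cycle and amino acid catabolism 2 were higher and 9 lower (median -0.12). Csad, which makes the taurine precursor hypotaurine, was the 2-fold exception, at 10.24, 11.11 and 12.55 in males and 8.90, 9.55 and 10.97 in females (1.52 ± 0.30, adjusted p = 8.07e-05).

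Of 26 serpins and other protease inhibitors 5 were higher and 5 lower in males. Serpina12, the adipokine vaspin, had a ratio of 1.93 (SE 0.33) and Mug1, a murinoglobulin that traps proteases, 1.59 (SE 0.24). For both, every male lay above every female. The neighbouring Mug2 had 1.71 (SE 0.35) with overlap. A second probe of Serpina12 had 0.57, and the 3 probes of Mug2 ran from 0.41 to 1.71. Serpinc1, antithrombin, had -1.16 (SE 0.16), with 9.96, 10.41 and 10.72 in males and 10.93, 11.50 and 12.05 in females, and no overlap. Without control females 6 to 9 this probe had -0.81, and a second probe had -0.56 over all control mice. Of 33 genes of complement and coagulation 7 were higher and 6 lower, or 6 and 4 without control females 6 to 9. Both lists stood near the shares of all autosomal genes (19.2% higher and 19.2% lower, and 21.2% and 18.2%). C6 (2.06, adjusted p = 1.56e-07), C8b (1.97, adjusted p = 0.00119) and C8a (1.62, adjusted p = 0.00876), all parts of the membrane attack complex, were higher in males. Every male lay above every female for C6 only. C8b read 10.98 to 12.40 in males and 8.16 to 12.1 in females. For C8a the ranges were 11.16 to 12.14 and 8.29 to 12.54, so the highest female was above every male. C8a did not hold in 16 of 19 fits with 1 mouse left out, with adjusted p-values up to 0.0236. Hrg, the histidine-rich glycoprotein of plasma, had -1.27 (SE 0.19), and no male reached the lowest female, and -0.84 without control females 6 to 9. A second Hrg probe had -0.29 and did not pass the lower threshold. Of 19 acute phase proteins 8 were lower in males and none higher (median -0.54). The count lower was 5 without control females 6 to 9 and 11 without control male 3. Summed signals were 296000 to 426000 in males and 361000 to 460000 in females. Control male 3 held the 426000, and the other control males had at most 330000.

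The 11 textbook male-predominant genes that were higher in males included Susd4 and Nox4. Susd4, a membrane regulator of complement, was detected in every male and no female, at least 2.6-fold higher in males (adjusted p = 5.28e-09). Nox4, an oxidase that makes hydrogen peroxide, read 9.40, 9.67 and 10.51 in males and 7.03, 7.76 and 8.45 in females (1.93 ± 0.22, adjusted p = 7.22e-09). Both separated the sexes.

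Called genes were also laid out along the chromosomes. The gene order held protein-coding genes only, so other genes in between were not counted. Each of 117 called genes with a place in this order was compared only with the next called gene on its chromosome. Such pairs lay within 10 genes of each other in 16 cases, 12 with the same direction and 4 with opposite directions. No share for other genes was computed. Adjacent pairs of the same direction were Cyp4a12a and Cyp4a12b, C8b and C8a, Mug1 and Mug2, and Hsd3b5 and Hsd3b2, and Mup5 and Mup21 had 2 genes between them. Paralogs like these share sequence, so a probe of one may read another. Opposite directions were seen for Sdr9c7 (1.12) beside Hsd17b6 (-1.18), related dehydrogenases on chromosome 10 with no gene between, for Hsd3b2 (1.11) and Hao2 (-1.71) on chromosome 3 with 3 genes between, for Mt1 (-2.19) and Herpud1 (1.14), and for C6 (2.06) and Selenop (-1.11). Chromosome 4 held 10 male-higher and 3 female-higher genes of 538 measured. The share of measured genes that were called ran between 0.388% on chromosome 9 and 2.65% on chromosome 15.

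The ratio in Rapa mice was measured on arrays outside the control contrast. These arrays did share the normalization, the filter and the estimate of the spread, and with the spread of the 19 control arrays alone 84 and 43 transcripts were called in place of 86 and 51. In Rapa mice 1830 autosomal transcripts (15.7%) were higher in males and 1892 (16.3%) higher in females at the lower threshold. Of the 86 male-higher transcripts, 72 passed in the same direction in Rapa mice, none in the opposite one, and all 86 kept their sign. Of the 51 female-higher transcripts, 33 passed in the same direction and 5 in the opposite one, and 42 kept their sign. At the 2-fold rule 30 and 20 passed. The median ratio of the 86 was 0.82 in Rapa mice, against 1.34 in control mice, and of the 51 it was -0.93 against -1.24, and the ratio was smaller in size in Rapa mice for 83 and 45 transcripts. Since the calls were chosen for a large ratio in control mice, a smaller ratio in other mice is a description.

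Cyp4a12a had a ratio of 4.41 in Rapa mice, against 5.44 in control mice, Cyp2d9 had 5.02 against 5.41, and A1bg had -5.06 against -5.97. The difference between the diets passed for none of these 3. Mup20, not called in control mice, had 2.48 in Rapa mice (adjusted p = 4.91e-06), against 0.76, and the interaction of sex and diet was 1.72 (adjusted p = 0.0328), or 1.79 (adjusted p = 0.076) without control females 6 to 9. Bcl6 likewise had 1.12 (adjusted p = 0.00111), against 0.51, but its interaction was not past the threshold (0.61, adjusted p = 0.296). Cyp2b9 and Cyp2b13, female-predominant and not called in control mice, had -2.52 (adjusted p = 0.00151) and -2.89 (adjusted p = 2.9e-05) in Rapa mice, with interactions that did not pass (adjusted p = 0.439 and 0.142).

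The interaction, the Rapa ratio minus the control ratio, passed the lower threshold for 2363 autosomal transcripts (20.3%), and for 18 of the 86 male-higher and 15 of the 51 female-higher ones. Without control females 6 to 9 it passed for 1032 autosomal transcripts, and for 7 of the 86 and 9 of the 51. It shares the control mice that chose these calls and is therefore given without further reading. Scp2 had a ratio of 1.02 in Rapa mice, against 2.23 in control mice (interaction -1.21, adjusted p = 1.77e-05). Sult1e1 had -0.55 (adjusted p = 0.0708), against -1.96 (interaction 1.41, adjusted p = 0.0039). In both the sexes were closer together in Rapa mice. Lyz2 had 0.18, against -1.64 (interaction 1.82, adjusted p = 0.000683), and Cyp2c29 had 0.85 (adjusted p = 0.00558), against -0.83, opposite in sign. Without control females 6 to 9 the control ratio of Cyp2c29 was -0.60 (adjusted p = 0.17) and did not pass.

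The 5 female-higher calls with the opposite direction in Rapa mice are named because of their small number, after their values were seen. Serpinc1 had 0.47 in Rapa mice, against -1.16 in control mice (interaction 1.63, adjusted p = 7.63e-07). Gng5, a subunit of G proteins, had 0.70 against -1.11, and Selenop, the selenium carrier of plasma, had 0.36 against -1.11. Nit2, an amidase, had 0.69 against -1.13, and Rida, a deaminase of reactive enamines, had 0.51 against -1.12. All 5 were therefore lower in males than in females on the control diet and higher in males on Rapa.

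**Figure D5:**
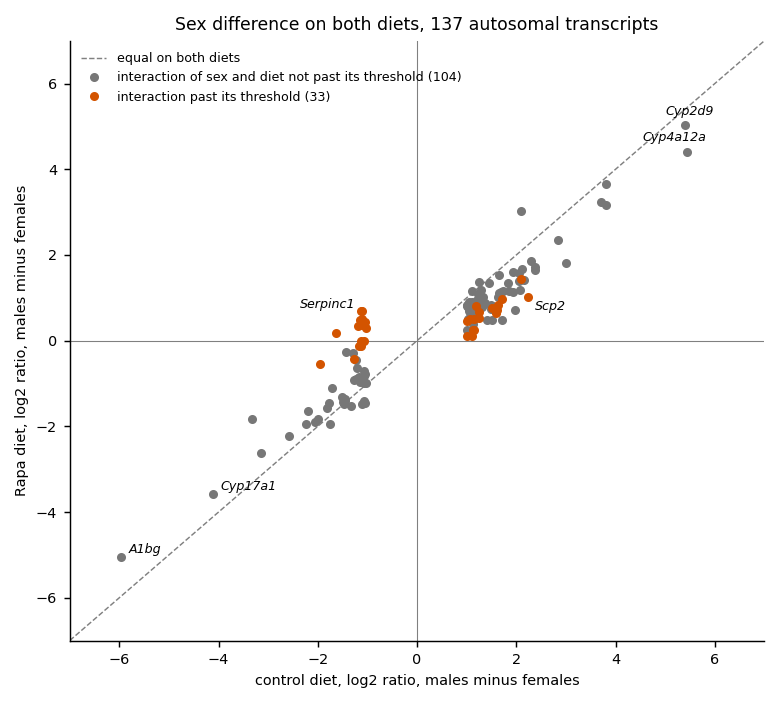
Log2 ratio of males over females in Rapa mice (vertical axis) against that in control mice (horizontal axis) for the 137 calls, with the 33 whose interaction passed the lower threshold in a colour of their own. All 86 male-higher transcripts lie above 0 on both axes, and 9 of the 51 female-higher ones lie above 0 on the vertical axis.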

How the data were processed

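Liver RNA was measured on 42 Illumina Mouse Ref8 v2 arrays, 1 per mouse. The authors extracted mean bead intensity with Genome Studios 1.6 and deposited it without normalization, with no background subtracted in the values (lowest intensity 51.4). Beside it they deposited a detection score, a fraction from 0 to 1. They also deposited log2 values that the authors had quantile-normalized in Matlab 2011a, used here as an alternative. The sources used here name no slide or scan batch.

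Here the intensities were log2-transformed and quantile-normalized over all 42 arrays, and probes with a detection score over 0.95 on at least 9 arrays were tested. Group means of the 4 groups were fitted with limma 3.58.1 in R 4.3.3 (lmFit and eBayes), and adjusted p-values are Benjamini-Hochberg values over the 12719 tested probes. Error after a ratio is the standard error of the fit. The p-values set a difference of group means against the spread between mice within groups, estimated over all 4 groups. They do not separate sex from array background, and the number of arrays limits the precision. Gene names and chromosomes came from the platform annotation and RefSeq (GRCm38.p6). "At least" folds, for a probe that no array of a sex detected, compare the mean of the brighter sex with the mean over the dimmer sex's arrays of the higher of the probe's own signal and the lowest detected signal.

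Named are the 15 genes with the highest and the 15 with the lowest ratio among the 2-fold calls, up to 4 genes of each described list, and a few regulators and textbook genes. The transcripts, lists and tests were chosen with earlier results of these data known. Neutrophil, acute phase and other sums add the linear signals of normalized values. Lists were read by the brightest probe of each gene.

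Alternatives were the authors' normalized values, median centring, background correction with an offset of 16, other detection filters, a fit of the control arrays alone, array weights, a replicate block, the methods' t-test, other fold thresholds, 1 probe per gene and leaving out mice. The fit was tested on simulated data. Leaving out control male 3 for the list counts was chosen after its values were seen.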

Additional observations from a re-analysis of the deposited data

Results flagged for a closer look

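Over 150 groups of 9 or 10 control mice (75 named probes in each sex), 1 mouse lay far from the rest in 19 cases, by a criterion (Dixon's test) that picks about 1 in 20 groups by chance. The probes share the same mice, so the cases are not independent. Control male 3 was the lowest male for Cyp4a12a (10.17), Cyp4a12b (8.713), Elovl3 (7.292), 2 probes of Cyp2a5 (7.95 and 9.637), Cyp2c29 (9.046), Cyp2c67 (12.31) and Sult2a8 (9.768). It was the highest male for Mt1 (15.64), Sybu (8.16), S100a8 (11.66) and Lcn2 (15.45). Control male 8 was the highest male for Eci3 (7.502). Control female 9 was the highest female for Cyp2d9 (10.51), Ptpn1 (11.05) and Bcl6 (10.15) and the lowest for Cyp2a5 (10.53). Control female 3 was the lowest female for Hsd3b5 (6.85), which no female array detected, and control female 7 the highest for Hsd17b6 (12.15).

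The sex difference differed between the diets by the interaction test for 16 named transcripts, of which 7 also passed without control females 6 to 9. The Rapa ratio minus the control ratio was negative for Scp2 (-1.21), Ociad2 (-0.635), Abcc2 (-0.55), Abcc3 (-0.883), Mug1 (-0.927) and Cish (-1.2). It was positive for Sult1e1 (1.41), Lyz2 (1.82), Cyp2c29 (1.68), Hsd17b6 (1.51), Igfbp7 (0.707), Ptpn1 (1.21), Serpinc1 (1.63), Hrg (0.853), Ctss (1.49) and Mup20 (1.72). All but Mup20 and Cish had been called in the control mice that also enter the interaction. Without control females 6 to 9 the 9 that did not pass were Ociad2 (adjusted p = 0.0789), Hsd17b6 (0.0522), Abcc2 (0.312), Abcc3 (0.141), Igfbp7 (0.0997), Ptpn1 (0.0577), Hrg (0.314), Mup20 (0.076) and Cish (0.114).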

How the results depend on the processing

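The control counts are written as 2-fold higher in males, 2-fold higher in females, then the same at the lower threshold (86, 51, 2627 and 2054), with 2363 transcripts for the interaction. Median centring gave 144, 25, 4352 and 1323, and 4311 for the interaction, and moved the median ratio of all autosomal transcripts from 0.02 to 0.14. Background correction gave 236 and 233 at 2-fold. A threshold of 1.5-fold gave 251 and 250, and 1 probe per gene gave 1726 male-higher at the lower threshold. Without control females 6 to 9 the counts were 68, 39, 1611 and 1371, with 1032 for the interaction. Leaving out 1 control mouse gave 78 (female 9) to 94 (male 3) and 45 (female 6) to 63 (male 3) at 2-fold, and 2401 to 2756 and 1878 to 2162 at the lower threshold. The other settings stayed within 1.5 times of each count. With the replicate number as a block the counts were 78, 34, 2248 and 1683, but the numbers did not pair the mice, since the 9 same-numbered pairs correlated at -0.5 to 0.262. Of 642 values of the 54 named 2-fold probes under settings other than leaving out 1 mouse, 600 kept direction and side of the threshold, 42 fell short of it and 0 turned. Over all 75 named probes 3 of 893 values turned, Ghr without control females 6 to 9 (-0.10) and with array weights (-0.13), and Igf1 with median centring (0.18). With 1 mouse left out 3 of 1425 turned, all near 0, and over the mice left out Socs2 ran between -0.011 and 0.29 and Igf1 between -0.12 and 0.0053. The causes were not tested. Signals of undetected probes are set by background, which differed between the sexes.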

Other observations

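Of 17 genes of cholesterol synthesis and uptake 1 was higher and 4 lower in control males (median -0.12), and in Rapa mice 1 was higher and 10 lower (median -0.43). Over all 8634 autosomal genes, 20% were higher and 18.9% lower in control males. In Rapa mice 1289 of the 8634 were higher and 1480 lower in males. Of 10 UDP-glucuronosyltransferases 2 were higher and 2 lower, or 0 and 3 without control females 6 to 9, of 11 carboxylesterases 1 and 2, of 17 alcohol and aldehyde dehydrogenases 3 and 2, and of 17 apolipoproteins and lipases 4 and 4. Of 11 genes of gluconeogenesis and glycogen 2 were higher and 1 lower. The UDP-glucuronosyltransferases (20% each way) and the apolipoproteins and lipases (23.5% each way) stood near the shares of all autosomal genes. The glutathione S-transferases had 10 of 20 genes higher and 1 lower in Rapa males than in Rapa females, against 3 and 2 in the control mice, and the difference between these counts was not tested.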
